A study of Mus musculus with 32 samples.

Results

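The respiratory chain subunits were taken as the genes of the mouse count table whose symbols begin with Nduf (followed by a, b, c, s or v and a digit), Sdha to Sdhd, Uqcr, Cyc1, Cox4 to Cox8 and Atp5, and the mitochondrial protein genes mt-Nd, mt-Co, mt-Cytb and mt-Atp. This rule, which uses names and no measured value, found 110 of 23517 genes. Of these, 99 lie in the nucleus and 11 in mitochondrial DNA. Complex I held 43 nuclear and 6 mitochondrial members, complex II 4 nuclear members, complex III 11 nuclear and 1 mitochondrial, complex IV 19 nuclear and 3 mitochondrial, and complex V 22 nuclear and 1 mitochondrial. Of 103 members found in the GENCODE annotation, 91 were protein-coding and 11 were processed pseudogenes that carry a subunit's name. Atp5f1, Atp5o, Atp5s, Cox4i2, Cox7b2, mt-Nd4l and mt-Atp8 are annotated and match the rule. They were not in the count table under these symbols and were not analysed here.

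Complexes I and II pass electrons from NADH and succinate to ubiquinone, complex III passes them on to cytochrome c, and complex IV passes them to oxygen. The proton gradient built by complexes I, III and IV drives ATP synthesis by complex V. Complex II is encoded in the nucleus alone, whereas the other complexes also contain subunits made inside the mitochondrion, so their assembly needs transcripts from both genomes, and in the colon respiration is known to rise as progenitor cells mature.

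Colonic organoids (colonoids) were grown from the proximal colon of 8 Lgr5-EGFP-IRES-CreERT2 mice, in which EGFP is expressed from the locus of the stem cell gene Lgr5, and EGFP-positive cells were sorted for 3′ RNA sequencing. Each mouse gave 1 untreated (UT) culture and 1 culture kept for 4 days with 250 nM bethanechol (Bch), an agonist of muscarinic acetylcholine receptors, and each of these 16 was sequenced as 2 technical replicates. Mice BR1 to BR4 were labelled male, with sorted Lgr5+ cells as the source and the RNeasy Plus Micro kit. Mice BR7 to BR10 carried no sex label, with colonic organoids as the source and the RNeasy Mini kit, and the series counts 4 female and 4 male mice. All cultures shared the allele, the region of colon and L-WRN conditioned medium, and all were epithelial cells in culture without stroma or nerves. The allele is a knock-in that can be expressed in only a part of the crypts, so that sorted cells need not represent every stem cell. Most cultures gave 3000 sorted cells, with a range from 2361 to 13114.

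Technical replicates of a culture differed by less than the sampling noise once a constant factor per gene was allowed, with a median chi-square of 0.457 per degree of freedom over 5181 genes, and were summed and counted as 1 sample. Independent draws would differ more, so the replicates cannot be taken as independent. Whether both counted the same molecules was not tested, and the sums may count a molecule more than once. The 16 sums held 557512 to 4050342 unique molecular identifiers (UMIs, counted cDNA molecules). Nuclear members took 5.98 to 7.94% of all UMIs, and mitochondrial members 1.65 to 3.15%. Of the 8 crypt stem cell markers, all but Olfm4 were found in every culture, with Lgr5 at a median of 26.8 CPM (UMI counts scaled to a common library size). Olfm4 lay at 0 to 1.485 CPM, close to no counts. Among colonocyte markers, Car1 (median 733 CPM) and Guca2a (270 CPM) were the highest and Krt20 (14.3 CPM) the next, so their sum rests mainly on Car1 and Guca2a. Immune markers summed to 1.48 to 11.5 CPM, and the 1 fibroblast or smooth muscle marker in the table to at most 1.00 CPM. Y-linked genes summed to 49.7 to 89.0 CPM in BR1 to BR4 and to 4.45 to 12.6 CPM in BR7 to BR10. Levels below are CPM after TMM normalization over the 16 sums. They were not divided by gene length because UMIs come from the 3′ end of a transcript alone. In bulk samples, fewer cells of a type and less RNA per cell cannot be told apart.

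Promoters are shown because nuclear respiratory factor 1 (NRF1) and factors of the ETS family (such as NRF2/GABP) are known regulators of nuclear subunit genes. RefSeq promoters (GRCm38.p6, 250 bases before to 50 after the start) were matched for 67 nuclear members and 27025 genes in all, and both strands were searched. The NRF1 motif (the capitals of Atp5k shown here, with any base at the fifth position) occurred in 16 of the 67 (23.9%) and in 5.19% of all promoters. The ETS motif CCGGAAGT occurred in 5 (7.46%) against 4.31%, the YY1 motif AAGATGGC in 10 (14.9%) against 3.19%, and TATAAA in 7 (10.4%) against 15.7%. A match describes letters in a window and is not a measured binding site. The windows below were chosen because they hold a motif, and motifs were not tested against any difference in level. The following 3 windows belong to members that differed between untreated cells of both sets of mice (described after the treatment), with the motif in capitals, for Atp5k at chr5:108434415-108434474, Uqcrh at chr4:116075071-116075106 and Uqcr11 at chr10:80406855-80406912, all on the minus strand.
Atp5k, NRF1 motif (reads alike on both strands): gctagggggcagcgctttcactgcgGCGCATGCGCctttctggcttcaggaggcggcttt
Uqcrh, ETS motif (reverse complement): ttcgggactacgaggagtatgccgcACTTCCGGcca
Uqcr11, ETS motif: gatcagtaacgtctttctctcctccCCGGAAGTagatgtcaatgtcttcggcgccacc

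In the mitochondrial genome, the end of a transcript decides what a 3′ count can see, and some of these ends also exist in the nucleus. Over their aligned lengths, mt-Co2 and the unprocessed pseudogene Gm28661 on chromosome 1 differed at 0 of 681 bases, mt-Co3 and Gm28437 at 0 of 783, mt-Atp6 and Gm10925 at 0 of 678, mt-Nd3 and Gm28438 at 1 of 345, and the end of mt-Co1 and Gm29216 at 6 of 492. The last 65 bases shared by gene and copy, 1 cDNA read long, are shown for the 3 genes with no difference, on the plus strand at chrM:7629-7693 (mt-Co2), chrM:9325-9389 (mt-Co3) and chrM:8540-8604 (mt-Atp6). They have no capitals because every base is the same in the copy.
mt-Co2: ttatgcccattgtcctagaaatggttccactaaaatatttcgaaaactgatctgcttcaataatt
mt-Co3: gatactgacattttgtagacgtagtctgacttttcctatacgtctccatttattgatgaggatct
mt-Atp6: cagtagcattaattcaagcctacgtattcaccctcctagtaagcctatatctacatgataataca
These were the 3 mitochondrial members with the fewest UMIs over all 16 sums, 6 for mt-Co2, 12 for mt-Co3 and 46 for mt-Atp6, and the copies held 36, 95 and 58. Counts of these 3 genes are therefore uncertain, and none of them passed the filter on low counts. By contrast, mt-Cytb, the cytochrome b of complex III, held 377954 UMIs (53.0% of the mitochondrial members), mt-Nd1 185462 (26.0%) and mt-Nd4 83416 (11.7%), and none of these 3 shared a 65-base stretch of its 3′ end with another annotated gene. The remaining subunits held 34673 (mt-Nd2), 16357 (mt-Co1), 11768 (mt-Nd5), 2250 (mt-Nd3) and 1143 UMIs (mt-Nd6). How reads with several matches were counted is not given in the sources used here.

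Some members had unequal technical replicates, and some shared their 3′ ends with other genes, but not always the same members. Across 91 members with at least 500 UMIs, 80 had a ratio of technical replicate 2 over 1 from 0.94 to 1.1, and 7 had a ratio above 1.2, against 2.62% of 5926 genes with as many UMIs. The ratio was 8.54 for Cox7c, 5.25 for Atp5g2, 1.82 for Atp5g1, 1.62 for Atp5md, 1.46 for mt-Nd3, 1.25 for Cox5b and 1.24 for Atp5h. Atp5g1, Atp5g2 and Atp5g3 are known to encode the same mature c subunit of ATP synthase from separate genes. Of the 65-base stretches in the last part of the transcripts, 45.5% of Atp5g2, 39.8% of Atp5g1 and 25.5% of Cox7c occurred in other genes, mostly pseudogenes, whereas Atp5g3 shared 0. Other members with shared 3′ ends had near-equal replicates, such as Cox6c2 (48.5% shared, ratio 0.96), Ndufb6 (29.8%, 0.96), Uqcrc2 (22.3%, 0.99) and mt-Co1 (95.2%, 1.04). Levels of the 7 genes with a ratio above 1.2 are uncertain.

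**Figure D1:**
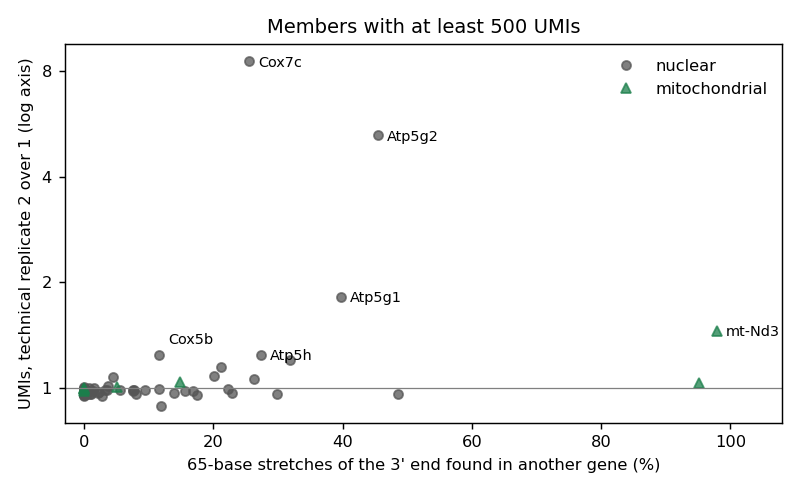
Ratio of UMIs in technical replicate 2 over 1 (log axis) against the percentage of 65-base stretches of the 3′ end that occur in another gene, 1 point per member with at least 500 UMIs and a known sequence (circles nuclear, triangles mitochondrial). Most members lie near 1, while Cox7c (8.54) and Atp5g2 (5.25) stand far above.

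Of the UMIs of nuclear members, a median of 34.5% (33.0 to 38.4% over the cultures) belonged to complex I, 2.57% to complex II, 14.6% to complex III, 24.3% to complex IV and 24.0% to complex V. The nuclear members with the highest median levels were Cox4i1 (3291 CPM), Cox8a (2301 CPM), Uqcr10 (2242 CPM), Ndufa4 (2151 CPM) and Atp5j (2017 CPM). These encode small or accessory subunits of complexes IV, IV, III, IV (Ndufa4 was first assigned to complex I, whose name it keeps here) and V. Among the subunits of complex II, Sdhd (687 CPM) and Sdhb (681 CPM) were higher than Sdhc (215 CPM) and the flavoprotein Sdha (112 CPM). Forms known from other tissues were low or close to 0. The heart and muscle form Cox7a1 had a median of 25.7 CPM against 1281 CPM for Cox7a2, the testis form Cox6b2 had 4.78 CPM against 1584 CPM for Cox6b1, and Cox6a2, Cox8b and Cox8c had 2, 4 and 1 UMIs over all 16 sums. Ndufa4l2, a paralog of Ndufa4 known to be induced by hypoxia, had a median of 5.48 CPM.

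The first comparison asked whether Bch changed subunit transcripts in the sorted cells of BR7 to BR10, and it found no member past the threshold. Of the 98 members that passed the filter on low counts, 0 were called at an adjusted p of 0.05 by edgeR's quasi-likelihood test with the mouse as a block, as were 0% of 9515 genes, and DESeq2's Wald test called 0. At an unadjusted p of 0.05, 1 member (Ndufa4l2) was higher and 0 were lower, against 3.78% of all genes in either direction. Fitted log2 fold changes were below 0 for 78 members (50.3% of all genes were), but small, with a median of −0.05 against −0.00 for all genes. The medians were −0.07 for complex I (36 of 41 below 0), −0.04 for complex II, −0.04 for complex III, −0.06 for complex IV, −0.04 for complex V and −0.05 for the 8 mitochondrial members tested. Ndufa10, an accessory subunit of complex I, was the 1 member lower in all 4 mice (5.56% of all genes were), and 4 members (Ndufs6b, Ndufa12-ps, Atp5l-ps2 and Atp5c1-ps) were higher in all 4 (5.72%).

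The 4 mice of this set did not move together. Summed levels of nuclear members, normalized within the set, went from 82572 CPM untreated to 79206 CPM with Bch in BR7, from 72983 to 64394 CPM in BR8, from 77728 to 66173 CPM in BR9 and from 69177 to 82855 CPM in BR10. BR10 went up where the others went down, from the lowest untreated value to the highest treated one, and the groups overlapped. The mean log2 ratio was −0.05 ± 0.22 (SD, n = 4). For mitochondrial members, the sums were 25133 and 25338 CPM in BR7, 23390 and 15494 CPM in BR8, 24836 and 16093 CPM in BR9, and 15632 and 24330 CPM in BR10. Both genomes thus went down in BR8 and BR9 and up in BR10, and the mean log2 ratio of mitochondrial members was −0.14 ± 0.60 (SD, n = 4). Counted singly, members lower with Bch were 60 of 98 in BR7, 83 in BR8, 79 in BR9 and 17 in BR10, whereas 49.0 to 52.1% of all genes were lower in each mouse. The summed log2 ratio of complex II was −0.04 ± 0.02 (SD, n = 4), below 0 in every mouse by 0.01 to 0.06, although none of its 4 members was lower in every mouse.

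**Figure D2:**
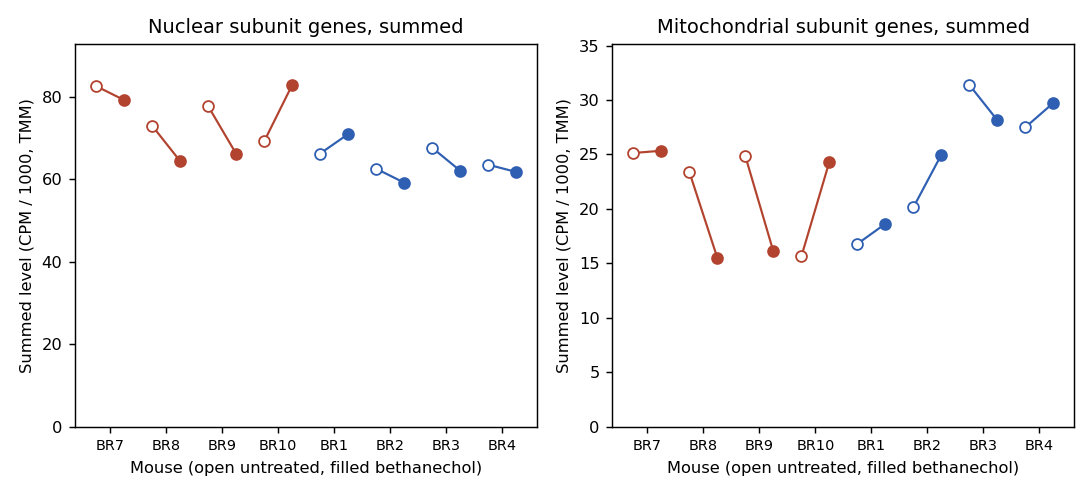
Summed level of nuclear (left) and mitochondrial (right) members (CPM divided by 1000) for each mouse, open circles untreated and filled circles Bch, red for BR7 to BR10 and blue for BR1 to BR4. BR10 rises in both panels while BR8 and BR9 fall, and the mice BR1 to BR4 move less.

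With each mouse left out in turn, edgeR called 0 members. The median log2 fold change was −0.03 without BR7 (63 of 100 members below 0), −0.00 without BR8 (49 of 98), 0.01 without BR9 (47 of 98) and −0.16 without BR10 (82 of 98), and for the mitochondrial members −0.02, 0.02, 0.02 and −0.32 in the same order. The sign of the median thus depended on single mice. Members lower in all 3 remaining mice were 8 without BR7, 1 without BR8, 3 without BR9 and 48 without BR10 (13.7% of 9327 genes were without BR10), and 0, 0, 0 and 12 were lower at an unadjusted p of 0.05 (3.23% without BR10). BR10 stood apart in the members' own values, so the counts without it are a description and no support for a lower level. Other lists also differed between treatments in these mice. Goblet cell markers had log2 ratios of 0.63 in BR7, −0.12 in BR8, −0.61 in BR9 and 0.95 in BR10, genes of the dissociation stress list 0.40, −0.12, −0.39 and 0.45, and the 2 mitochondrial rRNAs 0.34, −0.40, −0.16 and 0.74 as sums. Colonocyte markers had −0.15, 0.11, −0.26 and 0.59, crypt stem cell markers −0.25, 0.05, −0.11 and −0.30, and cycling genes −0.11, 0.06, 0.11 and −0.15. Tuft cell markers, which summed to at most 5.73 CPM, had −0.29, −0.36, −2.50 and −0.08, lower in every mouse. Ribosomal protein genes had medians of −0.39, −0.06, 0.01 and 0.39. The part of differentiation state and sample handling in the members' ratios was not tested.

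**Figure D3:**
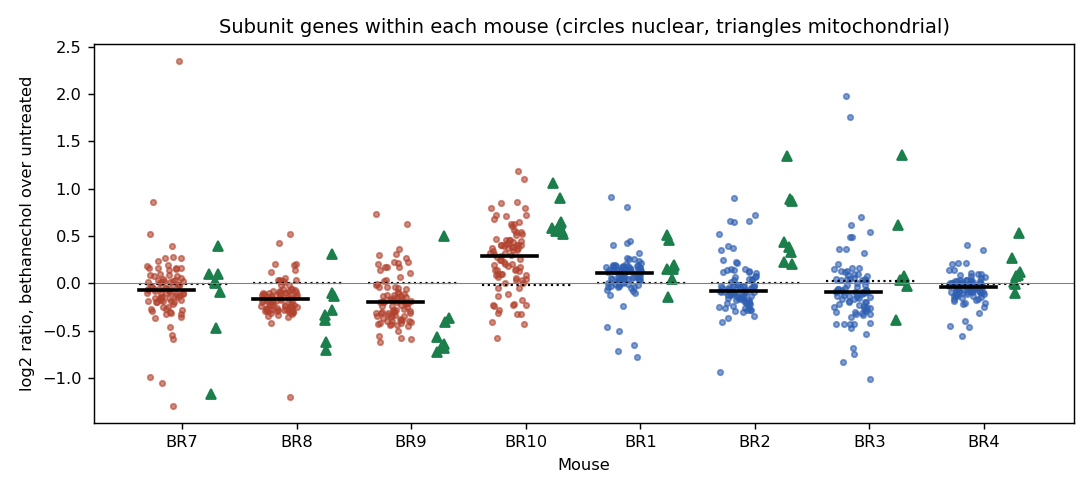
log2 ratio of Bch over untreated within each mouse, with circles for nuclear members, triangles for mitochondrial members, a solid bar at the nuclear median and a dotted line at the median of all genes. The nuclear median lies below that of all genes in BR7, BR8 and BR9 and well above it in BR10.

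Ndufa4l2 (chr10:127514967-127517154, GRCm38) was the 1 member with an unadjusted p under 0.05 in BR7 to BR10, at a low level. It stood at 3.20 CPM untreated and 19.9 CPM with Bch in BR7, 5.73 and 5.86 CPM in BR8, 7.61 and 5.82 CPM in BR9, and 12.7 and 30.4 CPM in BR10. The gain came from BR7 and BR10, and the groups overlapped. Goblet cell and stress lists were also higher with Bch in these mice, and a link was not tested. The log2 fold change was 0.88 ± 0.36 (SE, adjusted p = 0.999, edgeR). In BR1 to BR4 this gene was at 1.02 to 10.5 CPM untreated and 1.48 to 4.81 CPM with Bch, and it was not tested there because of low counts.

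The other named nuclear members of BR7 to BR10 were not called by edgeR either. Ndufa10 was at 251, 304, 353 and 380 CPM untreated and at 248, 284, 305 and 307 CPM with Bch in BR7, BR8, BR9 and BR10, with a log2 fold change of −0.16 ± 0.13 (SE, adjusted p = 0.999, edgeR). Its groups overlapped, and the differences were small in BR7 and BR8. In complex II, Sdha had −0.11, but it was higher in 3 of 4 mice and stood at 0.07 without BR10. Sdhb had −0.04 (−0.14 without BR7, −0.00 without BR8 or without BR9 and −0.01 without BR10), Sdhd −0.04 and Sdhc 0.04. The cytochrome Cyc1 (−0.08) and the core protein Uqcrc1 (−0.07) of complex III were each lower in 3 mice, as were Cox7a2l (−0.09) and Cox6a1 (−0.09) of complex IV. Single mice spread widely, with log2 ratios from −0.54 in BR7 to 0.39 in BR10 for Cox7a2l. For Cyc1 they ran from 0.17 in BR7 to −0.23 in BR10. Entries named as pseudogenes had both signs, with 0.55 for Atp5l-ps2, 0.24 for Atp5c1-ps, 0.22 for Atp5k-ps2 and 0.21 for Uqcrh-ps2, but −0.12 for Cox5b-ps, −0.18 for Atp5pb-ps and −0.10 for Ndufs5-ps. The 6 annotated as processed pseudogenes and tested lay above 0, with a median of 0.23, though after thinning to the shallowest sum Atp5c1-ps was at −0.01 and Ndufs6b at −0.02. Their counts are low, and Atp5c1-ps had 0.51 from technical replicate 1 and 0.01 from replicate 2.

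In BR1 to BR4, edgeR also called no member, and the mitochondrial members tested lay above 0 while nuclear members lay on both sides of it. Of 97 members tested, 0 were called by edgeR (0.0210% of 9509 genes were), and DESeq2's Wald test called 1 (mt-Nd4). At an unadjusted p of 0.05, 6 were higher and 4 were lower, against 7.71% of all genes. All 8 mitochondrial members had log2 fold changes above 0, with a median of 0.21, and 56 of 89 nuclear members were below 0 (49.8% of all genes were) and 33 above, with a median of −0.03. No test compared these groups. Above 0 were 7 of the 8 without the block, without BR1, without BR2 or without BR4, and 9 of 11 without a filter on low counts. Among nuclear members, complex I had 32 of 40 below 0 and a median of −0.07, complex II a median of −0.02, complex III 0.01, complex IV −0.02 and complex V 0.03. In all 4 mice, 9 members were lower (6.92% of all genes) and 9 were higher (8.23%).

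**Figure D4:**
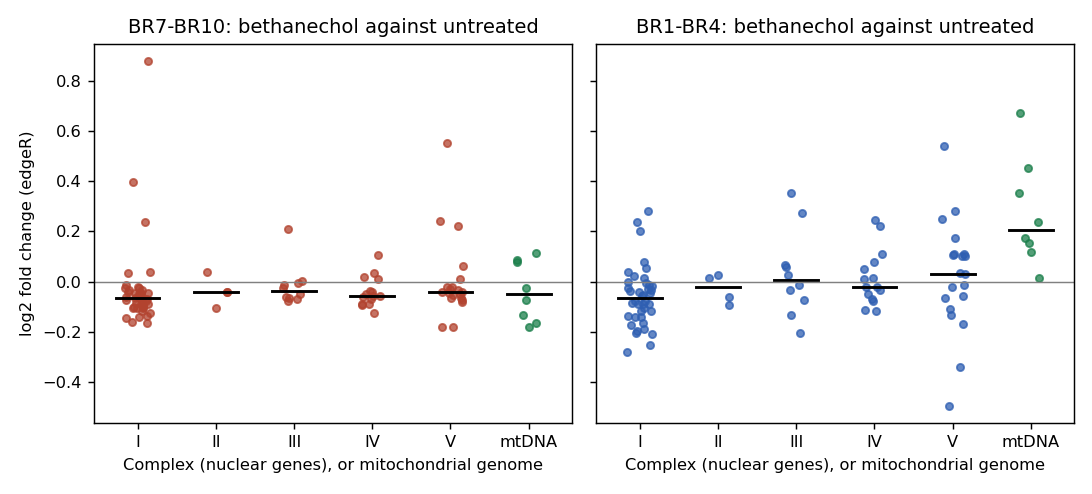
Fitted log2 fold change of each member tested, by complex for nuclear genes and for the mitochondrial genome (mtDNA), in BR7 to BR10 (left) and BR1 to BR4 (right), with a bar at the median of each column. No point passed an adjusted p of 0.05, and the 8 mitochondrial members of BR1 to BR4 lie above 0 in this fit (7 of 8 without the block), with a median of 0.21.

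mt-Nd4, a core subunit of the membrane arm of complex I (chrM:10167-11544, GRCm38), had the smallest p among the members in the Bch comparison of BR1 to BR4. It went from 1671 CPM untreated to 1724 CPM with Bch in BR1, from 1848 to 3439 CPM in BR2, from 2381 to 3661 CPM in BR3 and from 3679 to 4406 CPM in BR4. Every mouse was higher with Bch, though by little in BR1, and the groups overlapped because the untreated levels spread widely. The log2 fold change was 0.45 ± 0.11 (SE, adjusted p = 0.117, edgeR). DESeq2's Wald test called it (adjusted p = 0.0233), as did edgeR without a filter on low counts (adjusted p = 5.54e-05), whereas the largest adjusted p over the other settings was 0.990, and with 1 mouse left out it ranged from 0.138 to 0.983. In BR7 to BR10 the same gene was at 2848 and 2048 CPM in BR7, 2599 and 2042 CPM in BR8, 2414 and 1858 CPM in BR9, and 1555 and 2947 CPM in BR10. It was lower in 3 mice and higher in BR10, with a log2 fold change of −0.07 ± 0.18 (SE, adjusted p = 0.999, edgeR).

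mt-Nd3, another subunit of complex I, had a log2 fold change of 0.67 ± 0.18 (SE, adjusted p = 0.145, edgeR) in BR1 to BR4. Its levels were 54.3 and 78.2 CPM in BR1, 36.0 and 93.4 CPM in BR2, 36.7 and 95.5 CPM in BR3, and 92.9 and 86.1 CPM in BR4. It was called without a filter on low counts (adjusted p = 0.00117) and without BR4 (adjusted p = 0.0432, log2 fold change 1.03), with adjusted p up to 0.973 under other settings and up to 0.983 with another mouse left out, and 97.9% of its 3′ end is shared with the copy on chromosome 1. The fold changes of the other mitochondrial members were smaller. mt-Nd6 had 0.35, mt-Co1 0.24 (higher in 4 of 4 mice, adjusted p = 0.494, edgeR; 95.2% of its 3′ end is shared with Gm29216), mt-Nd2 0.17 (4 of 4), mt-Nd5 0.16, mt-Nd1 0.12 and mt-Cytb 0.01. With 1 mouse left out, mt-Nd6 ranged from 0.17 to 0.53, mt-Co1 from 0.17 to 0.29 and mt-Nd2 from 0.09 to 0.23. In the same fits mt-Nd5 ranged from 0.07 to 0.22, mt-Nd1 from 0.08 to 0.17 and mt-Cytb from −0.05 to 0.15. mt-Cytb, which holds most of the mitochondrial UMIs, was at 19100 CPM untreated and 14630 CPM with Bch in BR3 and was higher with Bch in the other 3 mice, so the summed mitochondrial log2 ratio was 0.10 ± 0.19 (SD, n = 4). Without mt-Cytb, the 6 mitochondrial members of complex I had summed log2 ratios of 0.13 to 0.45, higher in 4 of 4 mice, with a mean of 0.22 ± 0.15 (SD).

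Among nuclear members in BR1 to BR4, those with an unadjusted p under 0.05 belonged to complexes I, III and IV. Ndufa13, a subunit of complex I also known as GRIM-19, was at 983 and 930 CPM in BR1, 989 and 825 CPM in BR2, 1175 and 811 CPM in BR3, and 843 and 761 CPM in BR4. It was lower in all 4 mice, with a log2 fold change of −0.25 ± 0.09 (SE, adjusted p = 0.435, edgeR). Ndufa7 had −0.28 and Ndufb7 −0.19, each lower in 3 mice, and Uqcrq, a small subunit of complex III, had −0.20 and was lower in 4. In the other direction, the core protein Uqcrc2 of complex III was higher in 4 of 4 mice (0.27, adjusted p = 0.403, edgeR), and it shares 22.3% of its 3′ end with Pdzd9. Without BR3, whose untreated sum was the shallowest (557512 UMIs), the log2 fold change was 0.16 for Uqcrc2, −0.16 for Ndufa13, −0.10 for Ndufa7, −0.11 for Ndufb7 and −0.11 for Uqcrq. Cox7a2l, which takes part in joining complexes III and IV, had 0.24 and Cox8a 0.22. Cox8a was at 1325 CPM in untreated BR3, against 1899 to 2267 CPM in the other 3 untreated cultures, and had 0.10 without BR3. Cox7a2l had 0.15 without BR2. None of these passed the adjusted threshold. Of the other named members, Uqcr10 (−0.13) and Atp5j (−0.17) were lower and Cox5b (0.11) was higher in 4 of 4 mice, Atp5d had 0.17 (2 of 4 higher) and Atp5g2, with its unequal technical replicates, 0.54 (3 of 4 higher), with adjusted p from 0.726 to 0.858 (edgeR). Without BR3, Atp5j had −0.08, Atp5d 0.06 and Atp5g2 0.34, without BR2 Atp5d had 0.26, without BR4 Atp5g2 had 0.91, and without BR1 Cox5b had 0.06. In complex II, fold changes were −0.09 for Sdhb, −0.06 for Sdhd (lower in 4 of 4 mice), 0.02 for Sdhc and 0.03 for Sdha.

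The summed nuclear members in BR1 to BR4 went from 66240 to 70956 CPM in BR1, from 62547 to 59170 CPM in BR2, from 67629 to 62056 CPM in BR3 and from 63530 to 61761 CPM in BR4. They were higher in BR1 and lower in the other 3 mice, with a mean log2 ratio of −0.04 ± 0.10 (SD, n = 4). BR1 also differed in the number of sorted cells, 13114 untreated against 3504 with Bch. Several lists were lower with Bch in all 4 of these mice, in the order BR1, BR2, BR3 and BR4. Goblet cell markers had log2 ratios of −0.25, −0.17, −0.36 and −0.06, colonocyte markers −0.08, −0.77, −0.50 and −0.04, dissociation stress genes −0.02, −0.31, −0.34 and −0.13, and tuft cell markers, which summed to at most 11.7 CPM, −0.86, −0.90, −1.22 and −0.86. Tuft cell markers were also lower with Bch in every mouse of BR7 to BR10. Crypt stem cell markers had −0.04, 0.02, 0.16 and −0.05, and medians of ribosomal protein genes were 0.21, 0.47, 0.55 and −0.01. The part of these lists in the members' ratios was not tested.

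The balance of both genomes was followed as the summed level of mitochondrial members over that of nuclear members. In BR7 to BR10 it went from 0.304 to 0.320 in BR7, from 0.320 to 0.241 in BR8, from 0.320 to 0.243 in BR9 and from 0.226 to 0.294 in BR10. Hence 2 mice were lower and 2 higher, with a mean log2 ratio of −0.09 ± 0.38 (SD). In BR1 to BR4 it went from 0.253 to 0.263, from 0.322 to 0.422, from 0.464 to 0.453 and from 0.433 to 0.481. It was higher in 3 of 4 mice, with a mean log2 ratio of 0.14 ± 0.18 (SD). In both sets the mean was smaller than the spread between mice.

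Whether the response to Bch differed between both sets was tested by the interaction over all 16 sums. Of 100 members, 0 were called by edgeR (0% of 10280 genes), and 2 had an unadjusted p under 0.05 (4.39% of all genes). DESeq2 and each other alternative also called 0. The 2 were Ndufa4l2, with a difference in log2 fold change (BR7 to BR10 minus BR1 to BR4) of 1.46 ± 0.69 (SE), and the pseudogene Atp5l-ps2 with 1.04 ± 0.48 (SE), both with an adjusted p of 1.00 (edgeR). Ndufa4l2 failed the filter on low counts in BR1 to BR4 and passed it here through its counts in BR7 to BR10, so its difference and unadjusted p are no support for a difference between sets. Atp5l-ps2 was at 5.41 to 15.0 CPM, and its fold change in BR7 to BR10 was 1.06 from technical replicate 1 and 0.15 from replicate 2. For all 8 mitochondrial members the difference was below 0 (50.3% of all genes were), with a median of −0.29. It was largest for mt-Nd3 (−0.60 ± 0.55 SE) and mt-Nd4 (−0.53 ± 0.26 SE, adjusted p = 1.00, edgeR), and without BR9 it was below 0 for 4 of the 8 and had a median of −0.06.

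Untreated cells of both sets were set side by side as a description, since sex label, source and kit differ together and cannot be told apart. A minority of nuclear subunits passed the test. Of 97 members, 10 were called by edgeR, all higher in BR7 to BR10, against 1.64% of 9159 genes called in either direction and 0.972% called higher. Above 0 were 86 members (52.1% of all genes were below 0), with a median log2 difference of 0.21 against −0.02 for all genes. The summed nuclear level was 70380 to 84490 CPM in BR7 to BR10 and 61090 to 66017 CPM in BR1 to BR4, without overlap. Mitochondrial members overlapped, with 15904 to 25717 CPM against 16473 to 30628 CPM and a median of −0.02 over the 8 tested. The ribosomal protein genes, another large nuclear group, also overlapped, with 138000 to 185610 CPM against 128490 to 179320 CPM.

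The 10 members came from complexes V, III, IV and I. In complex V they were Atp5mpl and Atp5md, small subunits of the membrane part, Atp5k (subunit e), and Atp5g1 and Atp5g3, which encode the c ring. Atp5mpl (chr12:111961375-111966977, GRCm38) was at 1748, 1373, 1611 and 1204 CPM in BR7, BR8, BR9 and BR10 and at 1034, 950, 981 and 972 CPM in BR1, BR2, BR3 and BR4. The lowest value of the first set lay above the highest of the second. Its log2 difference was 0.58 ± 0.13 (SE, adjusted p = 0.0132, edgeR). Atp5md had 0.60 and Atp5g1 0.53, both with unequal technical replicates, Atp5k had 0.52 and Atp5g3 0.47. Complex III contributed Uqcrh (0.54), the hinge protein, and Uqcr11 (0.51).

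Complex IV contributed Cox7a2 and Cox7b. Cox7a2 (chr9:79755361-79759878) was at 1856, 1530, 1762 and 1390 CPM in BR7 to BR10 and at 1191, 1187, 1123 and 1119 CPM in BR1 to BR4. Again the sets did not overlap, with a log2 difference of 0.49 ± 0.12 (SE, adjusted p = 0.0374, edgeR), and Cox7b had 0.47. In complex I, the accessory subunit Ndufa3 was called, with 0.44 ± 0.12 (SE, adjusted p = 0.0468, edgeR). Promoters were matched for 9 of the 10, and 2 held the NRF1 motif (Atp5k, Atp5g3), 2 the ETS motif (Uqcrh, Uqcr11), 1 the YY1 motif (Ndufa3) and 4 none of these. Over all 67 members with a promoter, the shares were 23.9% for NRF1, 7.46% for ETS and 14.9% for YY1. With so few promoters, a difference from these shares cannot be read.

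By complex, the median log2 difference was 0.19 for complex I, 0.05 for complex II, 0.26 for complex III, 0.38 for complex IV and 0.44 for complex V. Higher in every BR7 to BR10 mouse than in any BR1 to BR4 mouse were 31 of 97 members (4.59% of all genes), 9 of 41 in complex I, 0 of 4 in complex II, 5 of 10 in complex III, 8 of 14 in complex IV and 9 of 20 in complex V, and 0 members were lower in this way. Among the named members that were not called, the difference was 0.05 for Uqcrc1, 0.11 for Cyc1, 0.17 for Cox4i1, 0.34 for Ndufa4, 0.36 for Cox8a and 0.46 for Cox6b1 (adjusted p = 0.0572, edgeR). In complex II it was −0.13 for Sdha, 0.01 for Sdhb, 0.09 for Sdhc and 0.23 for Sdhd.

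**Figure D5:**
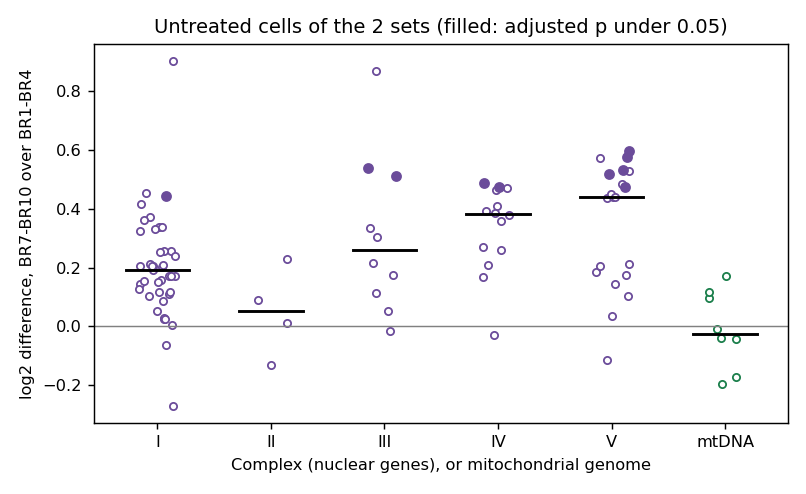
log2 difference between untreated cells of BR7 to BR10 and BR1 to BR4 for each member, by complex for nuclear genes and for the mitochondrial genome (mtDNA), filled where the adjusted p was under 0.05, with bars at medians. Medians range from 0.05 in complex II to 0.44 in complex V, and the mitochondrial median is −0.02.

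The number of calls rested on single mice. Without BR2 it was 0 (28 members were then higher at an unadjusted p of 0.05), without BR3 5, without BR4 3, without BR7 1, without BR8 3, without BR9 1 and without BR10 20, whereas it was 9 without BR1. Crypt stem cell markers summed to 539 to 641 CPM in BR7 to BR10 and 695 to 818 CPM in BR1 to BR4, without overlap. Goblet cell markers (3451 to 8984 against 4352 to 6692 CPM) and colonocyte markers (805 to 1684 against 787 to 1218 CPM) overlapped, as did enteroendocrine markers (370 to 950 against 195 to 418 CPM, means 548 and 296) and tuft cell markers (1.81 to 5.73 against 5.47 to 11.7 CPM). The part of differentiation state in the difference was not tested.

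Other genes of the pathway were read from lists of assembly factors, electron carriers, regulators and neighbouring metabolism. Of 133 and 135 such genes tested in BR7 to BR10 and in BR1 to BR4, 0 were called by edgeR in either set, 4 and 8 had an unadjusted p under 0.05 (3.78% and 7.71% of all genes had), and DESeq2 called 0. Assembly factors had medians of −0.03 (complex I, 14 tested), −0.13 (complex II, 4), −0.06 (complex III, 6), −0.05 (complex IV, 23) and −0.09 (complex V, 6) in BR7 to BR10, and of −0.07, 0.02, −0.10, 0.03 and −0.04 in BR1 to BR4. The flavination factor Sdhaf2 of complex II was lower in 4 of 4 mice in BR7 to BR10 (−0.22) and higher in 4 of 4 in BR1 to BR4 (0.14), and the interaction had an adjusted p of 1.00 (edgeR). Coa4, an assembly factor of complex IV, was lower in both sets, by −0.34 (3 of 4 mice) and −0.41 (4 of 4, adjusted p = 0.588, edgeR).

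Electron carriers and genes of ubiquinone synthesis numbered 20, with a median of −0.06 in BR7 to BR10 and 0.05 in BR1 to BR4. The methyltransferase Coq5 had −0.47 ± 0.16 (SE, adjusted p = 0.345, edgeR) in BR1 to BR4, lower in 4 of 4 mice, and Coq8a had −0.88 (adjusted p = 0.999) in BR7 to BR10, also lower in 4 of 4. Genes that express mitochondrial DNA had medians of −0.01 (28 tested) and −0.04 (30), with Lrpprc, which stabilizes mitochondrial mRNAs, at 0.64 (3 of 4 mice, adjusted p = 0.999, edgeR) in BR7 to BR10, and its partner Slirp at −0.16 (lower in 4 of 4, adjusted p = 0.726) in BR1 to BR4. Among nuclear regulators, Foxo3 had 0.82 in BR7 to BR10 (higher in 4 of 4, adjusted p = 0.999, edgeR) and the coactivator Ppargc1b had −1.08 in BR1 to BR4 (lower in 4 of 4, adjusted p = 0.559). The 14 genes of the TCA cycle had medians of −0.05 and 0.03. Between untreated sets, 1 of 132 genes of these lists was called by edgeR (1.64% of all genes were) and 2 by DESeq2. The 1 was Pet100, an assembly factor of complex IV, with 0.55 ± 0.14 (SE, adjusted p = 0.0314, edgeR) higher in BR7 to BR10.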

How the data were processed

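RNA was measured in 32 libraries, 2 technical replicates of sorted cells from 8 mice, untreated and with Bch. The authors deposited raw UMI counts per gene, which they made with the Drop-seq pipeline and, per the study's methods, GRCm38 and GENCODE M25. Counting of reads with several matches or by strand is not given in the sources used here. Of the genes, 1520 were blank in technical replicate 2 and were read as 0.

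The UMIs of both technical replicates of a culture were added up. All genes passing filterByExpr were fitted with edgeR 4.0.16 (TMM, robust quasi-likelihood test, mouse as block, R 4.3.3) in each set of 4 mice, p-values were adjusted by Benjamini-Hochberg over all genes, and the threshold was 0.05. The interaction used all 16 sums, and untreated sets were compared without a block. SE is the log2 fold change over the root of F, and ratios per mouse used a prior count of 2. Summed levels and their ratios were normalized within a set. Mice are the replicates, and 3 UMIs in the shallowest and deepest technical replicate 1 library equal 11.2 and 1.55 CPM (the 95% limit for a count of 0, counting error only). DESeq2 1.42.0 was an alternative, with other filters, size factors, single technical replicates, thinning and each mouse left out.

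The pairing comes from the labels, which give 1 mouse for each number. Correlations of paired deviations over genes were 0.0720, 0.164, −0.00225 and −0.0209 in BR7 to BR10, and 0.259, 0.0452, 0.0561 and 0.0999 in BR1 to BR4.

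Positions and 3′ ends came from GENCODE M21 and promoters from RefSeq, both on GRCm38, and the last 500 bases of transcripts were compared in stretches of 65. Members, gene lists and tests were chosen with earlier results of these data known. Named genes were the mitochondrial members, complex II, the 3 nuclear members of each other complex with the smallest p in each set, tissue isoforms, the 2 members with the smallest p of the interaction and the gene of each list with the smallest p. Members called between untreated sets, those with the highest levels, those with unequal technical replicates, Atp5pb-ps, Ndufs5-ps, Ndufa12-ps and Pet100 were named after their values were seen.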

Additional observations from a re-analysis of the deposited data

Results flagged for a closer look

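Among 120 groups of 4 values, 9 held a value far from the other 3, and chance gives about 1 in 20 groups. In BR7 to BR10, BR10 stood apart in the summed log2 ratio of nuclear complex V (0.26, others −0.16 to −0.12), in that of mt-Nd4 (0.90, others −0.47 to −0.34) and in that of Sdha (−0.58, others 0.02 to 0.14). In the same set BR7 stood apart in Sdhb (0.27, others −0.16 to −0.13).

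In BR1 to BR4, BR1 stood apart in the log2 ratios of Cyc1 (0.24, others −0.16 to −0.10) and Cox4i1 (0.14, others −0.04 to −0.03) and in the share of nuclear members in Bch-treated cells (6.84% of UMIs, others 5.98 to 6.08%). BR2 stood apart in mitochondrial complex I (0.45, others 0.13 to 0.16) and in the pseudogene Atp5c1-ps (0.66, others 0.03 to 0.12). The log2 fold change of the pseudogene Atp5l-ps2 differed in direction between both sets, higher in 4 of 4 mice of BR7 to BR10 and lower in 4 of 4 of BR1 to BR4, with a difference of 1.04 (adjusted p of the interaction = 1.00, edgeR).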

How the results depend on the processing

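In BR7 to BR10 and for the interaction, 0 members were called under each alternative run, and the median log2 fold change in BR7 to BR10 ranged from −0.16 to 0.01 with 1 mouse left out. In BR1 to BR4, DESeq2's Wald test called 1 member (mt-Nd4), fits without a filter on low counts called 2 (mt-Nd3 and mt-Nd4), and with 1 mouse left out 0 to 1 were called, with medians of −0.07 to 0.00. Without the replicate block, 0 members were called in either set, with medians of −0.05 and −0.02, so the pairing changed no call. Between untreated sets, the 10 calls became 18 with DESeq2's Wald test, 17 without a filter, 6 with at least 20 UMIs in every sum, 6 after thinning and 0 to 20 with 1 mouse left out. The cause of these changes was not tested. With protein-coding members of little shared sequence and equal technical replicates alone (chosen after seeing the data), the calls were 0, 0 and 8. Depth limits members with low counts, such as Ndufa4l2 and most members named as pseudogenes.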
